A study of Mus musculus with 6 samples.

Results

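The genes described here are 10 markers of Kupffer cells, the macrophages that live in the liver: Clec4f, Vsig4, Timd4, Cd5l, Marco, Folr2, Spic, Cd163, Adgre1 and Id3. They were chosen by symbol. All 10 were found among the 54532 genes of the count table, and all 10 passed the filter on low counts, as did 14758 genes in all. RNA came from whole livers of 6 mice of the strain C57BL/6J/Rj. The 3 controls were LysM+/+ Cd44 flox/flox littermates, which carry the floxed gene but no Cre. The 3 knockouts were LysMcre/+ Cd44 flox/flox, in which Cre expressed from the lysozyme locus removes Cd44, a receptor for hyaluronan, in macrophages, monocytes and neutrophils. All 6 mice had ethanol, given as a Lieber-DeCarli liquid diet at 6% (vol/vol) over 10 days. A dose of 5 g/kg followed on day 11, and the livers were taken 9 hours after it. Livers without ethanol and mice with Cre but intact Cd44 were not analysed here, so loss of Cd44 and the presence of Cre at the lysozyme locus cannot be told apart. The age and sex of the mice, and how fully Cre acts in Kupffer cells, are not given in the sources used here.

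Kupffer cells sit inside the liver sinusoids, where they clear bacteria, dying cells, aged red cells and immune complexes from the blood. Most are seeded before birth and renew themselves locally. When they are lost, monocytes can settle in their place and acquire the same markers, Clec4f early and Timd4 late. Their identity is held by signals from sinusoidal endothelial and stellate cells, among them CSF1, Notch ligands and the TGF-beta and BMP family, and by transcription factors such as PU.1 and LXR-alpha.

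To show the regulatory DNA of members at both ends of the response, the 250 bases before the RefSeq start site are printed for Marco and Cd5l, which had the largest decreases, and for Timd4 and Cd163, which did not pass the test. Sequences are from RefSeq on GRCm38.p6, 5′ to 3′ on the strand of the gene, and capitals mark matches to 1 of 4 motifs on either strand.
Marco: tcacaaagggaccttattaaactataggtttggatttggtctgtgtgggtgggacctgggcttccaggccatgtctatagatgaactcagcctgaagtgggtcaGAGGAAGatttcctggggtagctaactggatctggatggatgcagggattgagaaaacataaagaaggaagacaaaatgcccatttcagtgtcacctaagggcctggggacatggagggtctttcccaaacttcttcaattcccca
Cd5l: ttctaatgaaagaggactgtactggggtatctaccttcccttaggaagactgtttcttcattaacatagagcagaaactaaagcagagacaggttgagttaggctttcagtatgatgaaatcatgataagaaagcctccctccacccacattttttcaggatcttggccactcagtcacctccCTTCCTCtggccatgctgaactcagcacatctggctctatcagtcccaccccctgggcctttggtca
Timd4: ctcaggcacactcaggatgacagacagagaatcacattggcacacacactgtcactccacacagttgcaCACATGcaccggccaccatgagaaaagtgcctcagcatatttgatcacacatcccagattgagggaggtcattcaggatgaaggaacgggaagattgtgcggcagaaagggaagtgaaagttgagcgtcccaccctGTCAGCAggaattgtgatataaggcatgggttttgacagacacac
Cd163: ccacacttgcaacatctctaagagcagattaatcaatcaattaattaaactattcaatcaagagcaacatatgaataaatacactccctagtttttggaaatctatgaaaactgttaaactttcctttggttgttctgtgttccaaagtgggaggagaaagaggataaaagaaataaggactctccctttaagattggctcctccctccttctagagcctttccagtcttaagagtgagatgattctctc
The windows are chr1:120505025-120505274 (minus strand), chr3:87357631-87357880 (plus), chr11:46810549-46810798 (plus) and chr6:124304401-124304650 (plus). The motifs searched were GAGGAAG for PU.1, GTGGGAA for the Notch mediator RBPJ, TGCTGAC for the half-site of MAF factors, and CACATG for the E-box of the MiT/TFE family, to which Tfec belongs. None of the matches in these windows overlapped another.

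A window was found for 9 of the 10 members, all except Adgre1, and the first listed window was counted for each. The PU.1 motif was in 3 of these 9, against 10.6% of all 32851 windows of 250 bases. It starts 146 bases before the start site in Marco. Its reverse complement starts 67 bases before the start site in Cd5l and 209 bases before it in Id3. The Id3 window, this match included, lies wholly downstream of the earliest GENCODE start of the gene, as does the Spic window, and those of Clec4f and Folr2 do so in part. Timd4 held the MAF half-site, 45 bases before the start site (1 of 9 members, against 3.8% of all windows), and the E-box, 181 bases before it (1 of 9, against 12.3%). The RBPJ motif was in 0 of 9, against 5.4% of all windows, and the Cd163 window held none of the 4 motifs. These matches describe letters, not bound sites.

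Library totals ran from 18428224 to 24042917 counts. Levels below are CPM, counts relative to the library size after TMM scaling (trimmed mean of M values), and 3 counts were 0.119 to 0.148 CPM. Log2 fold changes are knockout against control, 3 livers against 3. Cd44 stood at 32.6, 34.7 and 26.4 CPM in controls and 2.11, 1.92 and 3.00 CPM in knockouts, and Lyz2, the gene of the Cre locus, at 195, 218 and 235 CPM in controls and 41.3, 36.9 and 66.5 CPM in knockouts, both lower in every knockout. Knockout liver 2 was the lowest knockout for 7 of the 10 members and for the summed shared myeloid markers (197 CPM, against 268 and 327 CPM in knockout livers 1 and 3). It was the highest of all livers for the summed hepatocyte markers. The part of these differences in the results was not tested.

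Of the 10 Kupffer genes, 8 fell in the knockout livers and 0 rose, by edgeR's quasi-likelihood test at a Benjamini-Hochberg adjusted p under 0.05 over all tested genes. Of all tested genes 25% passed, 13.1% lower and 11.9% higher. The 8 were Marco, Cd5l, Adgre1, Spic, Id3, Folr2, Vsig4 and Clec4f. Cd163 and Timd4 did not pass. The log2 fold changes of the 10 ran from −1.95 to −0.31, with a median of −1.16 against −0.010 over all tested genes. In 9 of the 10 every knockout was below every control. Groups did not overlap in 43.8% of all tested genes, and did not overlap with the knockouts lower in 22.5%. In whole liver, fewer Kupffer cells and less RNA per Kupffer cell cannot be told apart.

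**Figure D1:**
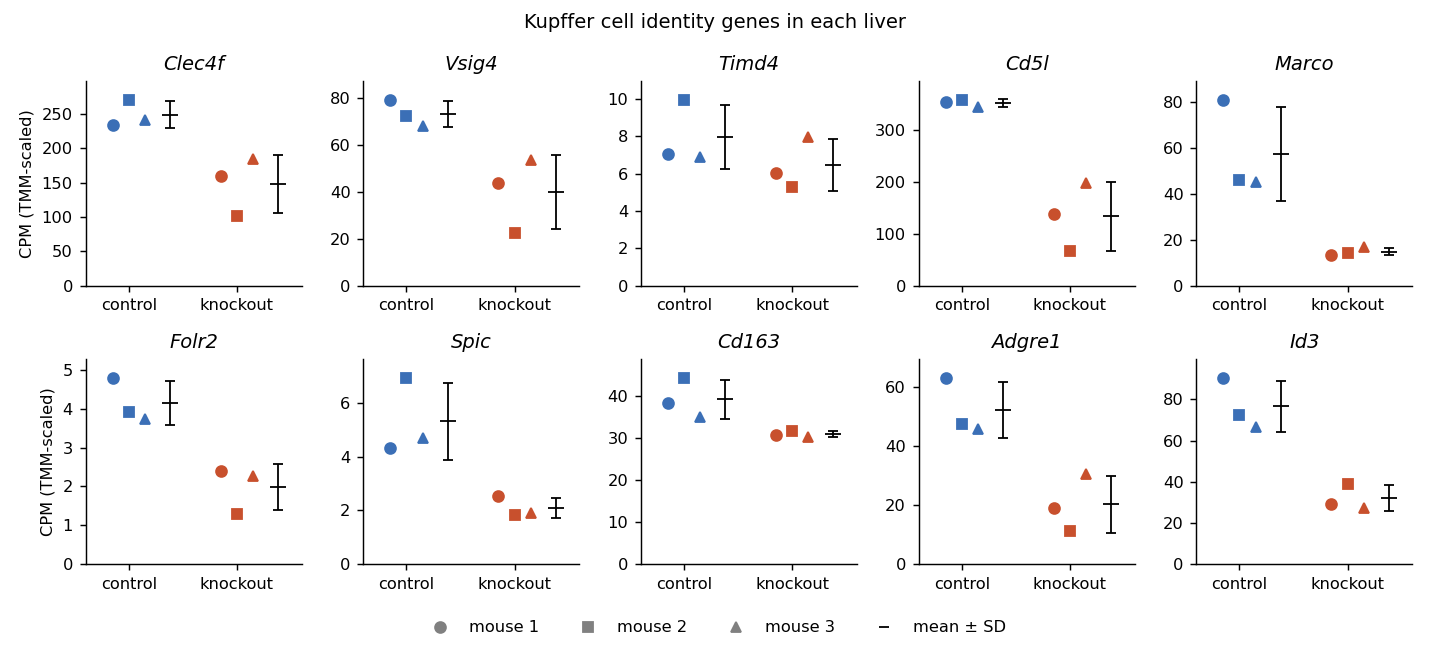
Level of each of the 10 genes in each liver, in TMM-scaled CPM on linear axes that start at 0. Symbols are single livers and black bars are mean ± SD of 3 livers. The groups overlap for Timd4 alone among the 10.

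Among the surface receptors for particles in the blood, Marco had the largest fold change. It encodes a class A scavenger receptor that binds bacteria (ENSMUSG00000026390, chromosome 1, 120474538 to 120505024, minus strand, GRCm38). In livers 1 to 3 of each group, it stood at 81.0, 46.2 and 45.2 CPM in controls and 13.6, 14.3 and 16.6 CPM in knockouts. All knockouts were low and close together, and control liver 1 was far above the other controls. Marco fell 3.88-fold (log2 −1.95, SE 0.24, adjusted p = 0.00124).

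Vsig4 encodes CRIg, a receptor for particles coated with fragments of complement C3 (ENSMUSG00000044206, chromosome X, 96247203 to 96293438, minus strand). Its levels were 79.5, 72.4 and 68.3 CPM in controls and 44.1, 22.4 and 53.6 CPM in knockouts. The groups did not overlap, and knockout liver 2 was the lowest. Vsig4 fell 1.83-fold (log2 −0.88, SE 0.27, adjusted p = 0.0471). Without knockout liver 2 the log2 value was −0.58, still past the threshold. Vsig4 did not pass without control liver 1, 2 or 3 or knockout liver 1 (adjusted p from 0.0917 to 0.117).

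Clec4f is a C-type lectin that in the mouse is largely restricted to Kupffer cells (ENSMUSG00000014542, chromosome 6, 83644542 to 83656187, minus strand). It stood at 234, 271 and 241 CPM in controls and 159, 101 and 184 CPM in knockouts. Every knockout was below every control, with knockout liver 2 the lowest. Clec4f fell 1.68-fold (log2 −0.75, SE 0.21, adjusted p = 0.0312), the smallest of the 8 decreases that passed. It did not pass without control liver 1, 2 or 3 or knockout liver 1 (adjusted p from 0.0596 to 0.102).

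Cd163 is the receptor for haemoglobin bound to haptoglobin (ENSMUSG00000008845, chromosome 6, 124304656 to 124330527, plus strand). Its levels were 38.2, 44.3 and 35.0 CPM in controls and 30.8, 31.6 and 30.3 CPM in knockouts. The groups did not overlap, though the gap was small, and the knockouts were nearly level, knockout liver 2 included. Cd163 did not pass (log2 −0.34, 95% interval −0.61 to −0.07, adjusted p = 0.0663). Of 14 alternatives it passed in 1, the scaling by library totals (log2 −0.60, adjusted p = 0.0118).

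Timd4 encodes TIM-4, which binds phosphatidylserine on dying cells and marks long-lived resident Kupffer cells (ENSMUSG00000055546, chromosome 11, 46810800 to 46844332, plus strand). Its levels were 7.06, 9.95 and 6.91 CPM in controls and 6.03, 5.29 and 7.98 CPM in knockouts. Knockout liver 3 was above control livers 1 and 3, so the groups overlapped. Timd4 did not pass (log2 −0.31, 95% interval −0.82 to 0.20, adjusted p = 0.347), and the interval does not show that its level was the same.

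Folr2 is the folate receptor beta of resident macrophages (ENSMUSG00000032725, chromosome 7, 101839988 to 101857194, minus strand). Its levels were low, at 4.80, 3.91 and 3.74 CPM in controls and 2.39, 1.298 and 2.26 CPM in knockouts. The groups did not overlap. Folr2 fell 2.09-fold (log2 −1.06, SE 0.28, adjusted p = 0.0260). It did not pass without control liver 1, 2 or 3 (adjusted p from 0.0567 to 0.0830). Of its 1546 exon bases 975 are shared with Gm10602 on the opposite strand, and whether the counting used strand is not given in the sources used here, so its level is uncertain.

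Adgre1 encodes F4/80, an adhesion receptor of mouse macrophages that eosinophils also carry (ENSMUSG00000004730, chromosome 17, 57358691 to 57483527, plus strand). It stood at 63.2, 47.3 and 45.9 CPM in controls and 18.9, 11.2 and 30.5 CPM in knockouts. The knockouts were spread widely, yet all were below the controls. Adgre1 fell 2.58-fold (log2 −1.37, SE 0.32, adjusted p = 0.0163). It did not pass without control liver 1 (adjusted p = 0.0502) or knockout liver 1 (adjusted p = 0.0597).

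Cd5l, also called AIM, is a scavenger protein that macrophages secrete into the blood (ENSMUSG00000015854, chromosome 3, 87357881 to 87371073, plus strand). Its levels were 353, 359 and 344 CPM in controls and 138, 66.0 and 199 CPM in knockouts. The controls lay in a narrow band (SD 2.06% of the mean) and the knockouts were spread out (SD 49.6% of the mean), with knockout liver 2 the lowest. Cd5l fell 2.62-fold (log2 −1.39, SE 0.33, adjusted p = 0.0179). It did not pass without control liver 2 (adjusted p = 0.0525) or knockout liver 1 (adjusted p = 0.0587).

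The remaining members act in the nucleus. Spic is an ETS-family transcription factor that heme induces in macrophages recycling iron (ENSMUSG00000004359, chromosome 10, 88674772 to 88685015, minus strand). Its levels were 4.32, 6.96 and 4.69 CPM in controls and 2.54, 1.83 and 1.92 CPM in knockouts. No knockout reached any control, and control liver 2 was the highest. Spic fell 2.53-fold (log2 −1.34, SE 0.27, adjusted p = 0.00893).

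Id3 is an inhibitor of basic helix-loop-helix factors that BMP signals induce (ENSMUSG00000007872, chromosome 4, 136143497 to 136145755, plus strand), and endothelial and other liver cells express it too. Its levels were 90.5, 72.6 and 66.8 CPM in controls and 29.0, 39.1 and 27.4 CPM in knockouts. The groups were well apart, and knockout liver 2 was here the highest of the knockouts. Id3 fell 2.41-fold (log2 −1.27, SE 0.17, adjusted p = 0.00211).

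Marco, Spic and Id3 passed with each of the 6 livers left out in turn. The number of members that fell was 4 without control liver 1 (Cd5l, Marco, Spic and Id3), 4 without control liver 2 (Marco, Spic, Adgre1 and Id3) and 4 without knockout liver 1 (Marco, Folr2, Spic and Id3). It was 5 without control liver 3 (Cd5l, Marco, Spic, Adgre1 and Id3), and 8 without knockout liver 2 or 3. The log2 values of all 10 members were below 0 in each of these 6 fits.

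**Figure D2:**
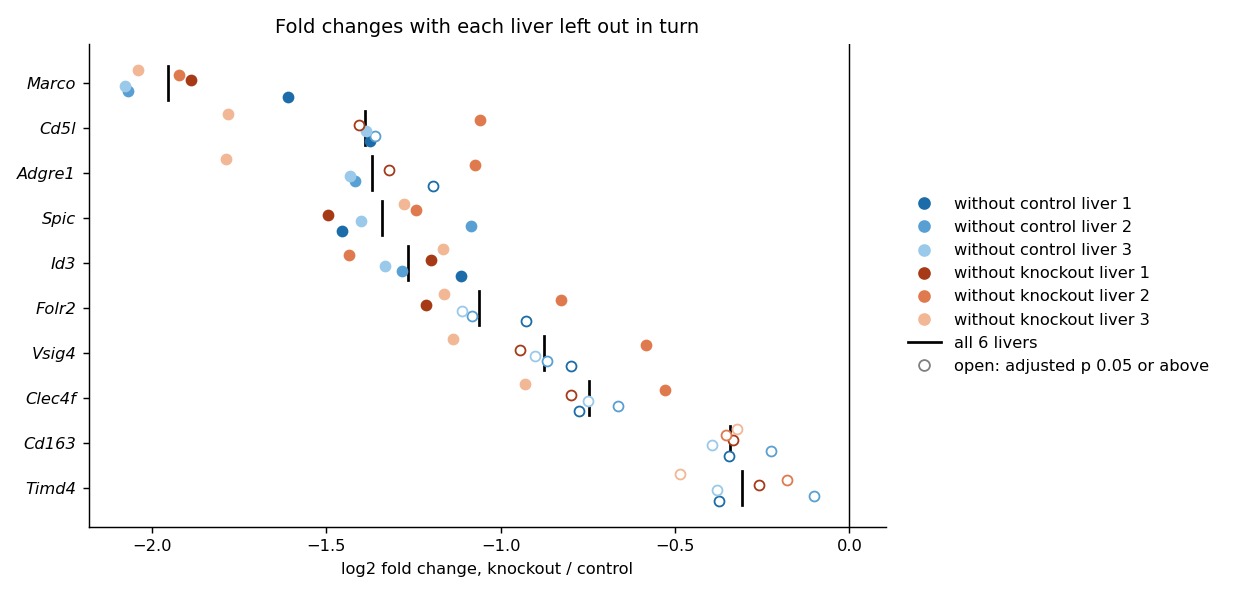
Log2 fold change of each gene, knockout against control, with all 6 livers (black line) and with 1 liver left out (points, filled where the adjusted p is under 0.05). Marco, Spic and Id3 are filled throughout, and Timd4 and Cd163 in none of these fits.

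Levels of different genes were compared as CPM per kilobase of exon. In controls the order was Cd5l (169 to 176 CPM per kilobase), Clec4f (94.7 to 109), Vsig4 (46.0 to 53.6), Id3 (37.3 to 50.5), Marco (23.5 to 42.1), Adgre1 (14.2 to 19.5), Cd163 (6.41 to 8.11), Timd4 (3.18 to 4.58), Folr2 (2.42 to 3.11) and Spic (1.13 to 1.81). The ranges of Vsig4 and Id3 overlapped, as did those of Id3 and Marco, and the other neighbours were apart. The group means had the same order in the knockouts. There the ranges of Cd5l (32.4 to 97.7 CPM per kilobase) and Clec4f (40.8 to 74.4) overlapped, as did those of Vsig4 (15.1 to 36.1) and Id3 (15.3 to 21.8). The range of Adgre1 (3.44 to 9.41 CPM per kilobase) took in those of Marco (7.04 to 8.65) and Cd163 (5.54 to 5.79). In knockout liver 2, Clec4f stood above Cd5l, Id3 above Vsig4, and Cd163 above Adgre1.

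The members were compared with each other through the ratio of each to Clec4f within a liver, which hardly depends on library scaling. The log2 ratio of Marco to Clec4f was −1.53, −2.55 and −2.41 in controls and −3.54, −2.81 and −3.46 in knockouts, a difference of the means of −1.11. The ratios of Cd5l (difference −0.74) and Adgre1 (−0.68) were also lower in every knockout than in any control. Those of Timd4 (difference 0.48) and Cd163 (0.45) were higher in every knockout, for Cd163 only just (−2.598 in knockout liver 3, −2.608 in control liver 2). Each of these 5 ratios gave p = 0.1 in a two-sided exact permutation test, the smallest that 3 livers against 3 allow, and 0.18 adjusted over the 9 ratios. Clec4f itself fell (log2 −0.75, against a median of −0.010 over all tested genes), so an unchanged gene would also have a higher ratio to it. How many of all tested genes have ratios that do not overlap was not computed. For Vsig4, Folr2, Spic and Id3 the groups overlapped (differences of −0.17, −0.28, −0.50 and −0.48, exact permutation p from 0.2 to 0.5).

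Genes that most myeloid cells share were lower in the same livers, so each member was also set against them. Of 15 shared myeloid markers, 14 fell and 0 rose (median log2 −1.45), with Cyth4, an exchange factor for ARF proteins (log2 −1.65, SE 0.18, adjusted p = 0.000966), and the tetraspanin Cd53 (log2 −1.51, SE 0.21, adjusted p = 0.00228) first by p. The exception was Lcp1, the actin-bundling protein plastin-2 (98.7 ± 10.8 against 98.7 ± 12.9 CPM, SD, n = 3), a gene chosen after its values were seen. The members were refitted with each library scaled to the summed counts of these 15 markers, 10168 to 15700 in controls and 4096 to 6638 in knockouts. On this scale the median log2 of all tested genes was 1.07, and 73.7% of them passed, 71.8% higher and 1.97% lower. The members had a median of −0.080, with 2 higher and 1 lower.

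Timd4 stood at 1.13, 2.03 and 1.36 in controls and 2.25, 2.69 and 2.44 in knockouts, in counts per 100 shared myeloid counts. It rose on this scale (log2 0.71, SE 0.31, adjusted p = 0.0458). Cd163 stood at 6.13, 9.02 and 6.92 in controls and 11.5, 16.1 and 9.26 in knockouts on the same scale, and rose as well (log2 0.74, SE 0.28, adjusted p = 0.0234), though its lowest knockout was only just above its highest control. Both moved in the direction of most tested genes. Marco stood at 13.0, 9.40 and 8.92 in controls and 5.05, 7.25 and 5.09 in knockouts per 100 and fell beyond the shared markers (log2 −0.85, SE 0.27, adjusted p = 0.00904). The other 7 members did not pass, with log2 values from −0.44 for Cd5l to 0.25 for Clec4f. The error of the scale itself is not in these p-values.

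Lcp1 made up 18.3% of the summed markers in controls and 38.1% in knockouts. With Lcp1 left out, an alternative added after seeing the data, Marco did not pass (log2 −0.43, adjusted p = 0.239), nor did it with the median of ratios to the markers as the scale (log2 −0.51, adjusted p = 0.133). Timd4 (log2 1.11, adjusted p = 0.00550) and Cd163 (log2 1.16, adjusted p = 0.00168) passed without Lcp1, on a scale on which 82.0% of all tested genes were higher. The remaining members did not pass without Lcp1, but their log2 values moved up, to −0.055 for Cd5l and 0.65 for Clec4f at the ends. The place of the members relative to the shared markers thus depends on Lcp1. On the scale of 15 markers, 0 of the 10 passed without control liver 1, by edgeR. Without control liver 3, Marco alone passed. Without knockout liver 1, Cd163 alone did. Without knockout liver 2, Timd4 and Cd163 did not pass, and Marco and Id3 fell.

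**Figure D3:**
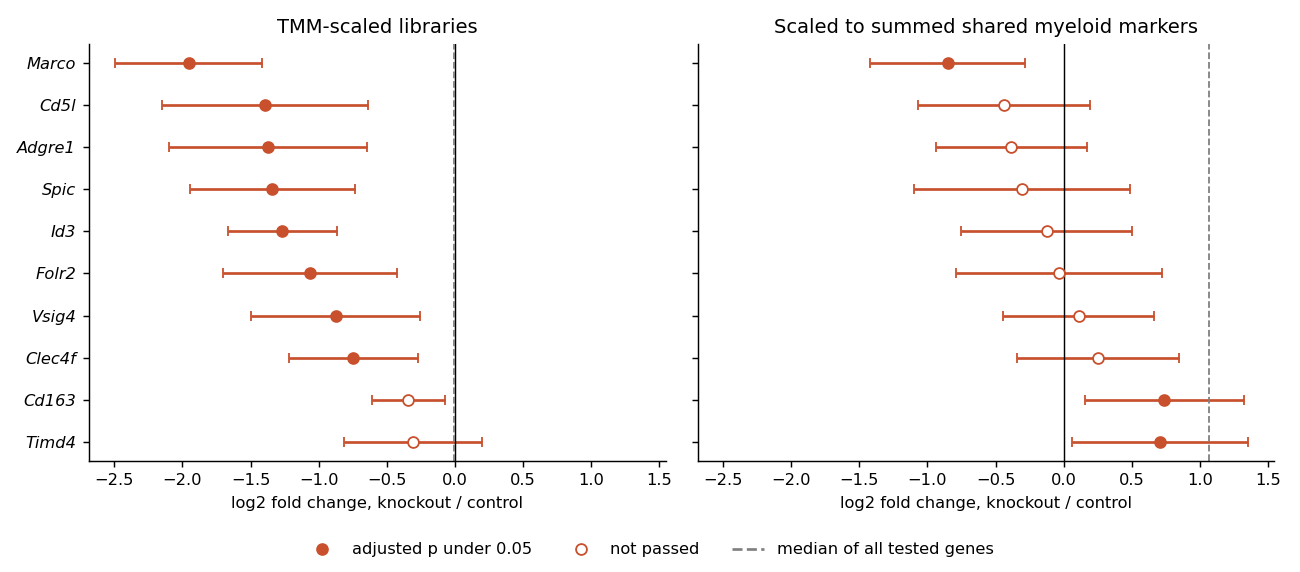
Log2 fold changes of the 10 genes with their 95% intervals, on TMM-scaled libraries (left) and with libraries scaled to the 15 shared myeloid markers (right). Filled points have an adjusted p under 0.05, and the dashed line is the median of all tested genes, −0.010 on the left and 1.07 on the right.

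Other genes enriched in Kupffer cells moved both ways. Of 13 such genes 12 were tested, and 6 fell and 2 rose (median log2 −0.87). The sialic acid lectin Siglec1 fell from 41.1 ± 1.04 to 17.1 ± 3.42 CPM (adjusted p = 0.00126), and the adhesion molecule Vcam1 from 85.8 ± 9.56 to 30.8 ± 9.85 CPM (adjusted p = 0.00349). C6, Lilra5, Il18bp and Clec1b fell too. Hpgd, the enzyme that inactivates prostaglandins, rose from 65.6 ± 8.47 to 119 ± 24.2 CPM (adjusted p = 0.00802), and the ficolin Fcna rose from 38.7 ± 5.11 to 53.0 ± 4.81 CPM (adjusted p = 0.0383), both named after their values were seen. The number that rose was 1 with library totals, with mice blocked by number, and without each single liver in turn.

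Among 12 transcription factors of the Kupffer programme, 5 fell and 1 rose (median log2 −0.08). Spi1, which encodes PU.1, fell from 27.0 ± 1.75 to 10.4 ± 3.99 CPM (adjusted p = 0.00499), and Irf8 from 17.1 ± 1.21 to 8.55 ± 2.35 CPM (adjusted p = 0.00875). Tfec, Zeb2 and Id1 fell too. Nr1h3, the gene of LXR-alpha, is active in hepatocytes as well. It rose from 83.1 ± 6.47 to 114 ± 8.55 CPM (adjusted p = 0.0226), and the number that rose was 0 with library totals, with mice blocked by number, and when control liver 2 or either of knockout livers 2 and 3 was left out. Rbpj (18.7 ± 1.37 against 18.4 ± 2.09 CPM), Smad4 and Maf did not pass. Nr1h3 and Rbpj were likewise picked with their values known.

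Of 17 ligands and receptors of the Kupffer niche, 4 fell and 0 rose (median log2 −0.22), where 25% of all tested genes passed and 13.1% were lower. Tgfb1 fell from 25.4 ± 3.39 to 13.8 ± 1.77 CPM (adjusted p = 0.00450). Csf1r, the receptor of CSF1 and IL-34, fell from 141 ± 14.9 to 76.0 ± 24.0 CPM (adjusted p = 0.0200), and Notch1 and the BMP9 receptor Acvrl1 fell too. The count was 1 without control liver 1 or knockout liver 1, 2 without liver 2 or 3 of the controls or liver 3 of the knockouts, and 8 with library totals. Exons of Csf1r, Notch1 and Acvrl1 share bases with genes on the opposite strand. The ligands Csf1, Il34, Dll4, Gdf2 and Bmp10 did not pass, and Dll4 stood at 3.15 ± 0.596 against 3.13 ± 0.550 CPM. Il34 was lower in every knockout than in any control (4.80 ± 0.498 against 3.08 ± 0.449 CPM, edgeR adjusted p = 0.0555). The log2 value of Csf1 was −0.32, and those of Gdf2 and Bmp10 were above 0 (0.24 and 0.15).

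Because BMP signals induce Id3, 9 other genes of that response were read beside it, and 3 fell and 0 rose (median log2 −0.45). Hamp, the iron hormone hepcidin of hepatocytes, fell from 735 ± 498 to 59.4 ± 24.3 CPM (log2 −3.63, SE 0.50, adjusted p = 0.00215), and control liver 1 stood at 1309 CPM. Without that liver the log2 value was −2.90, still past the threshold. Atoh8 fell from 29.6 ± 0.818 to 18.4 ± 1.98 CPM (adjusted p = 0.00467). Id1, a close relative of Id3, was at 26.0, 23.9 and 14.3 CPM in controls and 5.03, 14.1 and 3.50 CPM in knockouts. Like Id3 it was highest in knockout liver 2 among the knockouts. It fell 2.84-fold (adjusted p = 0.0464), but did not pass by DESeq2 or without any single liver other than knockout liver 2, without which its decrease was larger (log2 −2.32). Id2, Id4, Smad6, Smad7, Smad9 and Bambi did not pass. Of these, Id2, Smad6, Smad9 and Bambi had log2 values from 0.14 to 0.42, and Id4 and Smad7 stood at −0.71 and −0.45.

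Cd163 and Spic belong to the recycling of heme and iron. Of 13 other genes of that pathway, 3 fell and 0 rose (median log2 −0.15), where 25% of all tested genes passed and 13.1% were lower. Slc11a1, the metal transporter of the phagosome, fell from 36.8 ± 1.76 to 13.5 ± 3.42 CPM (adjusted p = 0.00124), and ceruloplasmin, Cp, and the heme transporter Slc48a1 fell too. The count was 1 with mice blocked by number and without control liver 3 or knockout liver 1. Hmox1, which opens the heme ring (107 ± 22.8 against 96.2 ± 41.8 CPM), and the iron exporter Slc40a1 (256 ± 46.5 against 252 ± 26.2 CPM) did not pass.

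Timd4 acts beside other receptors and bridging proteins for dying cells. Of 12 such genes 11 were tested, and 6 fell and 0 rose (median log2 −0.49). The bridging protein Mfge8 fell from 93.8 ± 13.5 to 32.6 ± 6.56 CPM (adjusted p = 0.00108), and the integrin subunit Itgav from 60.3 ± 7.59 to 38.9 ± 2.09 CPM (adjusted p = 0.00842). The receptors Axl, Mertk and Tyro3 and their ligand Pros1 fell too. The count was 2 without control liver 1, and 3 without control liver 3 or knockout liver 1.

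Markers of other myeloid cells moved with the Kupffer genes. Of 10 markers of lipid-associated macrophages, which form in injured fatty liver, 7 fell and 0 rose (median log2 −2.17), and their summed level was 600.3 to 665 CPM in controls and 129 to 299 CPM in knockouts. Gpnmb fell from 39.4 ± 7.24 to 2.82 ± 1.91 CPM and Cd63 from 118 ± 11.4 to 25.9 ± 13.9 CPM (adjusted p = 0.00100 and 0.00343). The log2 value of Gpnmb was −3.80, and −4.42 without knockout liver 3. Of 8 monocyte markers, among them Cx3cr1, 7 fell and 0 rose (median log2 −2.08), with a summed level of 31.9 to 66.4 CPM in controls and 10.7 to 14.7 CPM in knockouts. Of 10 neutrophil markers 7 were tested, and 4 fell and 0 rose (median log2 −1.91), with a summed level of 16.9 to 32.5 CPM in controls and 3.83 to 8.86 CPM in knockouts. The 4 were Csf3r, S100a8, Mmp8 and S100a9, and the count was 2 with mice blocked by number and without control liver 1 or knockout liver 1. The part of these cells in the decrease of Adgre1, Marco and the other members was not tested.

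Of 5 eosinophil markers only Siglecf was tested. It fell from 1.74 ± 0.343 to 0.473 ± 0.486 CPM (adjusted p = 0.0494) but did not pass in 6 of 13 alternatives. Its log2 value was −1.87, and −3.14 without knockout liver 3. Epx had 0 counts in every liver. Of 6 dendritic cell markers 0 passed by edgeR (4 at an unadjusted p under 0.05), 0 by DESeq2 and 1 by limma-voom. Of 7 lymphocyte markers 3 were tested, and 0 passed by edgeR (0 at an unadjusted p under 0.05), DESeq2 or limma-voom.

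Sinusoidal endothelial cells send the signals that hold Kupffer identity. Of 12 of their markers, 0 passed by edgeR (2 at an unadjusted p under 0.05), 1 by DESeq2 and 1 by limma-voom (median log2 0.02), and their summed level was 389 to 414 CPM in controls and 355 to 425 CPM in knockouts. With library totals 5 of them fell, and 2 did without knockout liver 2 or with mice blocked by number. First by p were Lyve1 (49.3 ± 8.24 against 23.3 ± 14.5 CPM, edgeR adjusted p = 0.0609) and Cdh5 (36.1 ± 6.67 against 26.7 ± 3.66 CPM, edgeR adjusted p = 0.0816). For both, every knockout was below every control, as in 22.5% of all tested genes. Lyve1 passed in 6 of 14 alternatives. Of 9 stellate cell markers Pdgfrb and Des fell and Ecm1 rose, but 4 fell and 0 rose with library totals, and Des was lost when liver 2 or 3 of the controls, or knockout liver 1, was left out. Of 11 tested hepatocyte markers 5 rose and 0 fell (median log2 0.55), namely Apoa2, Ttr, Asgr1, Serpina1c and Cps1. Their count was 3 without control liver 1, and the summed level of the list was 87722 to 104371 CPM in controls and 114682 to 153241 CPM in knockouts.

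**Figure D4:**
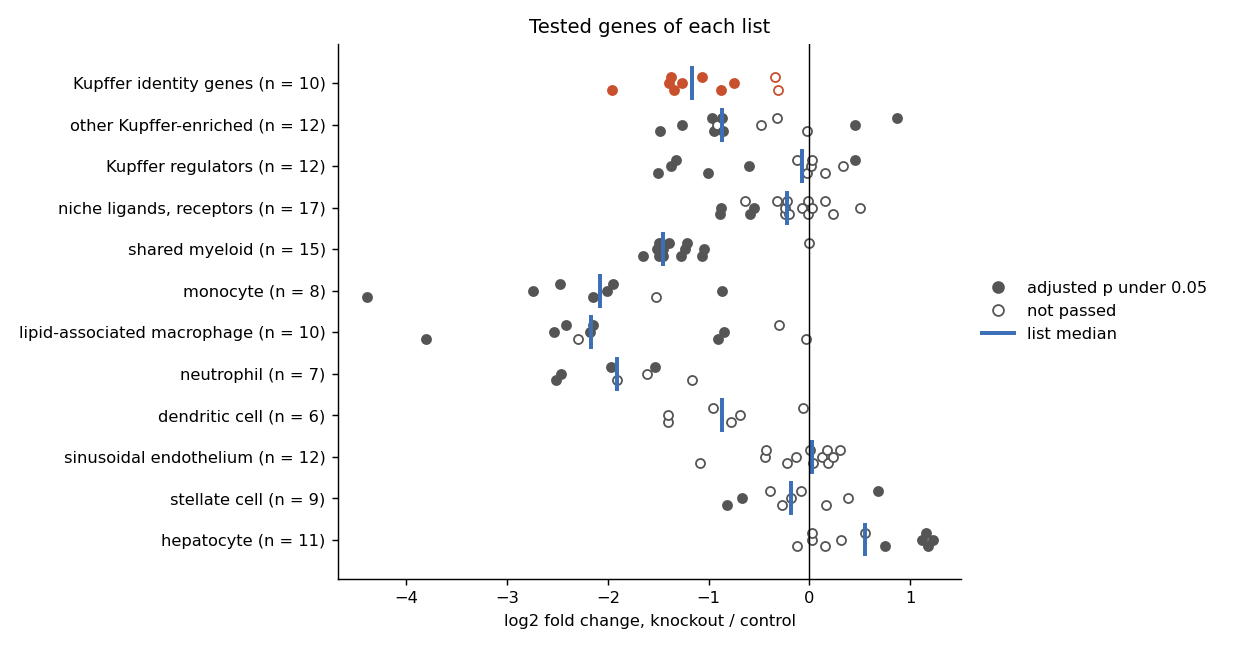
Log2 fold change of every tested gene in 12 lists, knockout against control, filled where the adjusted p is under 0.05, with the list median as a blue line and the number of tested genes in brackets. The 10 Kupffer identity genes (red) all lie below 0, with a median of −1.16, between those of the shared myeloid markers (−1.45) and the other Kupffer-enriched genes (−0.87).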

How the data were processed

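The authors deposited raw read counts, 1 column per mouse and 1 row per Ensembl gene, made from liver mRNA selected with poly-T beads, per the labels' protocols. The submitters' processing notes list HISAT2 2.0.5, StringTie 1.3.3b and featureCounts 1.5.0-p3 with the build GRCm38.p6, and do not say what each did. Strand, reads with several matches and the annotation release are not given in the sources used here. GENCODE M21 (GRCm38) gave symbols, positions and exon lengths for 54495 of the 54532 genes. Besides Folr2, Csf1r, Notch1 and Acvrl1, other genes named here share exon bases with genes on the opposite strand. Among them are Serpina1c (429 of 1361 bases), Lcp1, Vcam1, Fcna, Il18bp, Zeb2, Itgav, Cp, Slc48a1, Cx3cr1 and Des.

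Counts were filtered with filterByExpr, scaled by TMM and tested with edgeR 4.0.16 (quasi-likelihood, R 4.3.3) on all 6 livers without covariates, with Benjamini-Hochberg adjustment over 14758 genes. The SE is the log2 fold change over the square root of F. Ratios to Clec4f used log2 CPM with a prior count of 2. Alternatives included DESeq2 1.42.0 and limma-voom (limma 3.58.1). No pair of libraries within a group agreed within sampling noise (lowest chi-square 26.05 per degree of freedom). The labels describe separate mice. The fits were tested on simulated data.

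The 10 members, the 18 other lists (186 of 187 symbols matched, all but Tf) and the motifs were chosen with earlier results of these data known. From each list the text names the 2 genes with the smallest p, or more where this completes a count of 5 or fewer. All other genes of the lists were named with their values known. Some genes of these lists are not reported here by name. Genes of 1 list are not independent.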

Additional observations from a re-analysis of the deposited data

How the results depend on the processing

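With 3 livers in each group, some calls near the threshold were lost when a liver was left out. Such fits also had fewer livers, and the part of this in the lost calls was not tested. The same 8 Kupffer genes fell with DESeq2, limma-voom, RLE size factors, without the 20 most abundant genes, with no filter and with at least 50 counts in 3 libraries, and 9 fell with library totals. The count was 3 at an adjusted p under 0.01, 9 at 0.10, and 4 to 8 with each liver left out. Over all genes 3684 changed, 1933 lower and 1751 higher. With each liver left out these counts were 2275 to 3413, 1183 to 1837 and 1086 to 1576, and at an adjusted p under 0.01 they were 1515, 791 and 724. With library totals, which shift the median of all genes to −0.26, 3693 were lower and 904 higher.

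Livers with the same mouse number did not deviate together (correlations −0.027, 0.044 and −0.018). With that number as a replicate block 3086 genes and the same 8 members passed, and 3 members on the shared myeloid scale. On that scale the count was 2 with the median of ratios, 2 without Lcp1 and 0 to 4 with each liver left out, and 4 members that did not pass changed sign. With the median of ratios, without Lcp1, and over the livers left out, Folr2 stood at 0.29, 0.36 and −0.18 to 0.041, Spic at 0.017, 0.11 and −0.52 to 0.013, and Id3 at 0.22, 0.32 and −0.56 to 0.11. Adgre1 stood at 0.0020 without Lcp1. The lymphocyte gene Nkg7, which did not pass, turned to −0.059 with library totals. The cause was not tested.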

Other observations

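Vsig4 binds fragments of complement C3. Of 9 other genes around C3, 3 fell and 1 rose (median log2 0.13). The anaphylatoxin receptors C3ar1 (from 18.3 ± 1.42 to 6.56 ± 0.749 CPM, adjusted p = 0.000650) and C5ar1 (from 13.9 ± 2.09 to 4.11 ± 0.892 CPM, adjusted p = 0.00108) fell, as did Itgax, a subunit of another receptor for C3 fragments (from 12.2 ± 1.59 to 2.68 ± 2.03 CPM, adjusted p = 0.0120). The log2 value of Itgax was −2.18, and −2.93 without knockout liver 3. Cfi, the protease that cleaves C3b, rose from 521 ± 39.7 to 776 ± 46.2 CPM (adjusted p = 0.0137), but did not pass with library totals or without control liver 2. C3 itself, named with its value known, did not pass (11000.0 ± 1477 against 12748 ± 1423 CPM).

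Of 11 scavenger and lectin receptors beside Marco, 10 were tested, and 4 fell and 0 rose (median log2 −1.11). Msr1, the class A scavenger receptor related to Marco, stood at 48.7, 42.2 and 42.3 CPM in controls and 16.4, 14.9 and 19.0 CPM in knockouts. The groups were far apart, and Msr1 fell 2.65-fold (adjusted p = 0.000594). The mannose receptor Mrc1, which sinusoidal endothelium also makes, fell from 67.2 ± 1.55 to 40.4 ± 7.19 CPM (adjusted p = 0.00843), and Clec4n and Clec7a fell too. The count was 7 with no filter and without knockout liver 3, and 3 without control liver 1 or 3 or knockout liver 1. Clec7a did not pass in 5 of 14 alternatives.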
